A study of Mus musculus with 62 samples.

Results

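The 10 genes described here mark and steer blood vessels, and they are 10 of the 47643 genes with an expression value in diaphragm muscle of mice with melanoma xenografts. They are the apelin receptor Aplnr and its ligand Apln, the vascular endothelial growth factor Vegfa and its receptors Kdr and Flt1, the angiopoietin receptor Tek and its partner Tie1, the endothelial junction genes Pecam1 and Cdh5, and the endothelial cell product Esm1. Aplnr was selected on its measured values, since it was among the largest falls in cachectic against control mice at 8 weeks, and the other genes were chosen by name as apelin, VEGF and endothelial genes. The 8-week values of the cachectic and control mice are therefore given as a description, with no p-value, and nothing is read from counts of genes past a threshold there. Earlier results of these data were known when the genes were chosen, so the other weeks are not an independent set.

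Diaphragm RNA of 62 female mice was sequenced, with a library for each mouse. Cachectic mice (CAC) received human melanoma xenograft cells of a stock that causes wasting, non-cachectic mice (NCAC) those of a stock that does not, and control mice (Con) a mock injection of PBS, and muscle was taken 2, 4, 6 or 8 weeks later. Each group had 5 mice at each time, apart from 7 cachectic mice at 8 weeks. All mice were 2 months old by the labels, the same at every time, and the methods give this age for the mice as bought. Age at collection is not given, so a difference between weeks cannot be told apart from one of age. The strain of the mice is C57BL6/J in the labels but NCI Ath/nude in the design text and the methods, and no further genotype is given. Nude mice lack a thymus and most T cells but keep other immune cells, and each tumor arm rests on 1 tumor stock, so a difference between the arms cannot be told apart from a difference between those tumors.

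Apelin is a secreted peptide that acts on Aplnr, a G protein-coupled receptor of endothelial cells, and the pair takes part in sprouting and in setting the caliber of new vessels. VEGF-A, made in skeletal muscle largely by the fibers themselves, signals through Kdr (VEGFR2), while Flt1 (VEGFR1) binds it more tightly, signals weakly and can act as a trap for it. Tek (Tie2) and Tie1 keep vessels quiescent under angiopoietins, Cdh5 (VE-cadherin) and Pecam1 (CD31) hold endothelial cells together, and Esm1 is a proteoglycan secreted by endothelial tip cells.

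The values are TPM, each gene's share of the transcripts corrected for its length, so levels of different genes can be compared. They keep no read counts, and the depth of the libraries is unknown. The tissue label was checked against 12 muscle fiber genes, whose summed level lay between 40630 and 106387 TPM in the 62 libraries, with Acta1 the most abundant and none of the 12 at 0 in all mice. Among the libraries 4 stood apart: CAC replicates 3 and 4 and NCAC replicate 5 at 2 weeks and CAC replicate 3 at 8 weeks listed 15069 to 16389 genes above 0, against 17909 to 19057 in the other 58, and mitochondrially encoded genes took 54.4% to 61.5% of their TPM against 32.5% to 50.1%. The highest levels of liver genes were in another 4, Con replicates 2, 4 and 5 at 2 weeks and CAC replicate 5 at 6 weeks, with sums over 10 liver genes of 24393, 11661, 8858 and 5340 TPM against a median of 91.8 TPM over all libraries, and Alb the most abundant. They are the 4 highest, and the next were CAC replicate 1 at 2 weeks (3397 TPM), CAC replicate 2 at 8 weeks (2262 TPM) and Con replicate 1 at 4 weeks (1848 TPM), which stay in every fit that leaves out only these 4. The mitochondrial share also went with the group at 6 weeks. It was then 34.3% to 44.9% in cachectic mice, each below all control mice (44.9% to 47.9%), and 43.2% to 47.9% in non-cachectic mice, and at 4 weeks it was 39.6% to 45.6%, 43.8% to 48.2% and 44.3% to 48.2% in the same order. At 8 weeks it was 32.5% to 41.6% in the cachectic mice other than replicate 3, which was at 57.1%. Control mice were then at 40.9% to 49.3% and non-cachectic mice at 44.7% to 45.6%. Since TPM sum to a fixed total, a lower share there goes with higher values elsewhere. Results on the 10 genes that rest on either set of 4 are given with and without it, with exceptions at 6 weeks. The 6-week differences of Flt1, Vegfa, Tek, Tie1, Pecam1 and Esm1 are not given without the libraries high in liver genes. Nor is that of Cdh5 from non-cachectic mice. In Tek and Pecam1 at 6 weeks cachectic replicate 5, high in liver genes, was the only cachectic mouse to overlap the other groups.

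All 10 genes were above 0 in all 62 mice, and all 10 passed the filter of at least 1 TPM in at least 5 mice that left 13578 genes for testing. In the 20 control mice Vegfa was the most abundant, at 150.3 ± 23.4 TPM (SD, n = 20), followed by Cdh5 at 65.5 ± 7.05 and Pecam1 at 54.9 ± 6.47. Kdr stood at 36.2 ± 4.91 TPM, Tie1 at 24.9 ± 2.80, Flt1 at 23.7 ± 3.54 and Tek at 18.7 ± 2.58 (SD, n = 20). Aplnr at 10.04 ± 3.79, Apln at 5.28 ± 1.59 and Esm1 at 2.10 ± 0.762 TPM were the least abundant (SD, n = 20). Kdr was thus higher than Flt1 in level in control muscle, and the ligand Vegfa was higher than either of its receptors.

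Apln, the ligand, was low in cachectic mice from 4 weeks on. At 4 weeks it stood at 2.73, 0.784, 1.36, 1.04 and 3.00 TPM in the 5 cachectic mice, at 6.82, 5.98, 4.45, 3.69 and 4.05 TPM in the 5 control mice and at 5.74, 4.38, 5.58, 3.03 and 5.92 TPM in the 5 non-cachectic mice. Every cachectic mouse lay below every control and every non-cachectic mouse, though the highest cachectic value nearly met the lowest non-cachectic one. Apln was the 1 gene of the 10 that was separated downward against both groups, where 1.93% of all genes tested were separated downward against control and 0.906% against non-cachectic mice. On the log2(TPM + 1) scale, which understates changes of genes near 1 TPM, the difference from control was -1.16 (SE 0.26, limma, adjusted p = 0.0800) and from non-cachectic mice -1.14 (SE 0.26, limma, adjusted p = 0.0830), so neither passed the threshold of an adjusted p under 0.05. Without cachectic replicate 1 the difference from control passed (limma, adjusted p = 0.0407), and without cachectic replicate 5 that from non-cachectic mice did (limma, adjusted p = 0.0380). Each was 1 of 10 fits with a mouse left out, and no other of these fits passed. Over them the limma adjusted p reached 0.745 against control and 0.884 against non-cachectic mice.

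At 6 weeks Apln fell in cachectic mice by both comparisons. It stood at 0.625, 1.02, 0.867, 2.01 and 1.25 TPM in cachectic mice, at 5.50, 3.21, 4.48, 3.88 and 4.80 TPM in control mice and at 3.98, 6.30, 5.04, 5.42 and 3.53 TPM in non-cachectic mice. The groups did not overlap: the highest cachectic mouse, replicate 4, lay below the lowest of the other 10. Apln differed by -1.33 (SE 0.26, limma, adjusted p = 0.000621) from control and by -1.45 (SE 0.26, limma, adjusted p = 0.000217) from non-cachectic mice on the log2(TPM + 1) scale. An exact two-sided permutation test gave p = 0.00794 for each comparison, the smallest that 5 mice against 5 allow. With a pseudocount of 0.1 in place of 1 the differences were -1.91 and -2.05. In the same mice Cdh5 differed by -0.07 from control and -0.13 from non-cachectic mice, and Pecam1 by 0.42 and 0.32. The part of endothelial cell number in the fall of Apln was not tested.

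Aplnr, the receptor, was spread widely at 4 weeks and separated at 6 weeks. At 4 weeks the cachectic mice stood at 5.12, 0.789, 4.07, 1.82 and 12.3 TPM, the control mice at 18.0, 10.5, 9.66, 7.98 and 2.74 TPM and the non-cachectic mice at 10.9, 5.46, 9.41, 3.38 and 16.3 TPM. Cachectic replicate 5 lay among the high mice of the other groups and control replicate 5 among the low cachectic mice, so the groups overlapped. The differences of -1.05 (SE 0.41, limma, adjusted p = 0.645) from control and -0.97 (SE 0.41, limma, adjusted p = 0.830) from non-cachectic mice did not pass the threshold. At 6 weeks Aplnr stood at 0.927, 1.12, 2.31, 3.71 and 1.40 TPM in cachectic mice, at 6.20, 9.25, 5.79, 8.45 and 6.33 TPM in control mice and at 8.26, 14.8, 12.1, 6.05 and 6.62 TPM in non-cachectic mice. All 5 cachectic mice lay below all 10 others, and replicate 4, the highest in Apln, was also the highest in Aplnr.

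The 6-week fall of Aplnr was -1.57 (SE 0.41, limma, adjusted p = 0.0109) against control and -1.88 (SE 0.41, limma, adjusted p = 0.00226) against non-cachectic mice, and the exact two-sided permutation p was 0.00794 for each. Without cachectic replicate 1 the first was -1.44 with a limma adjusted p of 0.0535 and so lost the call. Without the 4 libraries high in liver genes, among them cachectic replicate 5, Aplnr differed by -1.52 (limma, adjusted p = 0.0261) and -1.83 (limma, adjusted p = 0.00676), and Apln by -1.36 (limma, adjusted p = 0.00127) and -1.48 (limma, adjusted p = 0.000569). Dunn's rank test over the 12 conditions called neither gene in either comparison, as it called 0 of all 13578 genes, with adjusted p-values between 0.118 and 0.172.

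At 8 weeks, the values that chose Aplnr, the 7 cachectic mice ranged from 0.298 to 2.26 TPM with a median of 1.13 TPM, against 9.95, 12.4, 15.4, 11.1 and 10.1 TPM in control mice. In non-cachectic mice the values were 8.42, 11.1, 1.73, 10.04 and 13.7 TPM, so that replicate 3 lay within the cachectic range. Apln ranged from 0.118 to 1.38 TPM with a median of 0.468 TPM in cachectic mice, against 5.02 to 7.88 TPM in control and 4.11 to 5.70 TPM in non-cachectic mice. The log2(TPM + 1) differences from control were -2.60 for Aplnr and -2.29 for Apln. Cachectic replicate 3, with few genes listed, held 1.78 TPM of Aplnr and 0.467 TPM of Apln, and without it the differences were -2.66 and -2.27.

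Over the 12 conditions the order of the mean levels put cachectic mice last for both genes, at 8, 6, 4 and 2 weeks from the lowest upward. For Apln the means of log2(TPM + 1) were 0.67 ± 0.39 at 8 weeks (SD, n = 7), 1.08 ± 0.33 at 6 weeks, 1.40 ± 0.52 at 4 weeks and 2.29 ± 0.92 at 2 weeks (SD, n = 5 each), and the 8 other conditions lay between 2.41 and 2.96. For Aplnr they were 1.07 ± 0.48 at 8 weeks (SD, n = 7), 1.45 ± 0.53 at 6 weeks, 2.20 ± 1.10 at 4 weeks and 2.82 ± 0.80 at 2 weeks (SD, n = 5 each), and the 8 others lay between 3.02 and 3.66. Neighbors in these orders differed by less than the larger of their SDs, except for Apln in cachectic mice at 8 and 6 weeks and in control mice at 8 and 4 weeks, the highest pair, whose means lay further apart than either SD. From 4 to 6 weeks within cachectic mice Apln differed by -0.32 (SE 0.26, limma, adjusted p = 0.864) and Aplnr by -0.75 (SE 0.41, limma, adjusted p = 0.744). None of the 10 genes passed in that comparison, where limma called 0.0957% of all genes. The test of whether the cachectic minus control difference changed between 4 and 6 weeks gave -0.18 for Apln and -0.52 for Aplnr (limma, adjusted p = 1.000 for both). In it limma called 0% of all genes, with 506 at an unadjusted p under 0.05, so a deepening between these weeks was not shown.

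**Figure D1:**
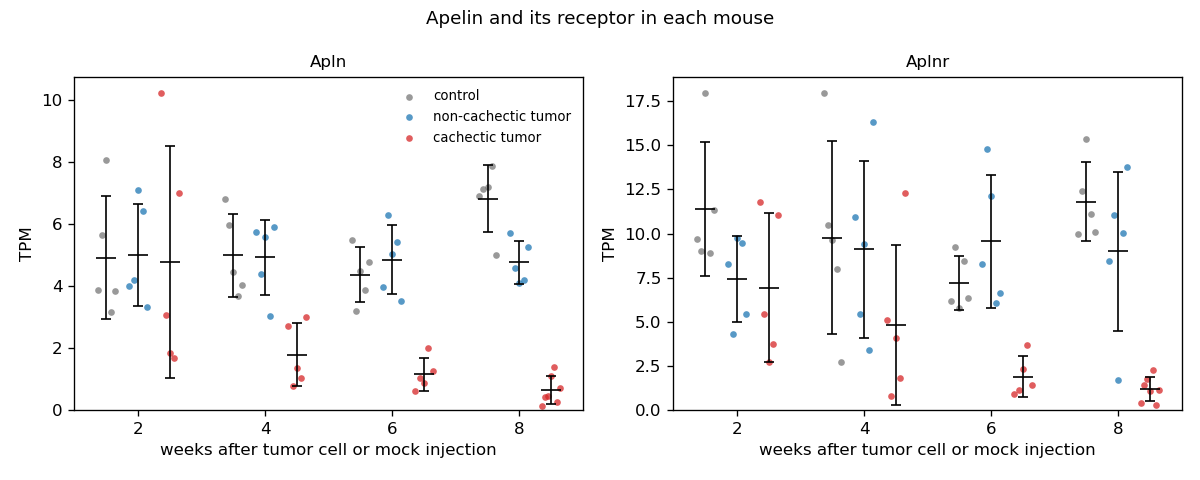
TPM of Apln (left) and Aplnr (right) in each mouse, by week and group; points are mice, horizontal bars are means and error bars are SDs over 5 mice (7 for cachectic mice at 8 weeks). Cachectic mice at 6 weeks lie between 0.625 and 2.01 TPM for Apln and between 0.927 and 3.71 TPM for Aplnr, below all other mice of that week.

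Ratios between genes within a mouse were looked at after the values were seen and are given without a test. Those of Aplnr to Cdh5, Flt1 to Cdh5 and Tek to Tie1 were also computed and are not given. How often ratios of other gene pairs separate the groups was not computed. The ratio of Aplnr to Apln overlapped between the groups, and that of Apln to Cdh5 did not at 4 and 6 weeks but did at 2 and 8 weeks. Within a mouse, Aplnr over Apln averaged 1.64 in cachectic mice at 6 weeks (1.10 to 2.66), 1.76 in control mice (1.13 to 2.88) and 1.97 in non-cachectic mice (1.12 to 2.41). Apln over Cdh5 was 0.0399, 0.0141, 0.0263, 0.0183 and 0.0399 in the 5 cachectic mice at 4 weeks, against 0.0661 to 0.103 in control and 0.0580 to 0.104 in non-cachectic mice. At 6 weeks the same ratio was 0.00900 to 0.0283 in cachectic, 0.0509 to 0.0778 in control and 0.0574 to 0.0908 in non-cachectic mice. Cachectic mice thus had less Apln for their Cdh5 level at both these weeks. At 2 weeks the ratio was 0.0494 to 0.138 in cachectic and 0.0541 to 0.127 in control mice, and at 8 weeks it was 0.00190 to 0.0693 in cachectic mice, the highest being replicate 3, against 0.0671 to 0.111 in control and 0.0499 to 0.0849 in non-cachectic mice.

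At 6 weeks the VEGF receptor genes lay on opposite sides in cachectic mice, Flt1 above and Kdr below control mice, though neither was called in limma. Flt1 stood at 41.2, 35.1, 37.8, 39.4 and 34.0 TPM in cachectic mice, at 21.6, 26.2, 24.5, 27.3 and 23.1 TPM in control mice and at 24.8, 23.1, 23.3, 24.4 and 24.0 TPM in non-cachectic mice. Every cachectic mouse lay above all 10 others. Kdr stood at 32.4, 28.5, 28.8, 22.7 and 21.2 TPM in cachectic mice, at 35.2, 34.1, 36.8, 34.5 and 35.8 TPM in control mice and at 30.2, 42.6, 36.9, 35.4 and 36.1 TPM in non-cachectic mice. Every cachectic mouse lay below all control mice, and all but replicate 1 lay below the non-cachectic mice too.

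The exact two-sided permutation p at 6 weeks was 0.00794 for Flt1 in both comparisons, 0.00794 for Kdr against control and 0.0159 for Kdr against non-cachectic mice. In the fit over all genes neither passed: Flt1 differed by 0.59 from control (SE 0.37, limma, adjusted p = 0.382) and 0.63 from non-cachectic mice (SE 0.37, limma, adjusted p = 0.398), and Kdr by -0.40 (SE 0.27, limma, adjusted p = 0.427) and -0.43 (SE 0.27, limma, adjusted p = 0.431). That fit takes 1 spread per gene over the 12 conditions, and the SD of Flt1 in log2(TPM + 1) was 0.11 in cachectic mice at 6 weeks but 1.01 at 2 weeks and 1.30 at 8 weeks, where libraries with few genes lay. Without those 4 libraries the differences stayed as they were, and limma gave adjusted p-values of 0.00212 and 0.00145 for Flt1 and 0.0397 and 0.0299 for Kdr. These differences are read against the median over all genes, which at 6 weeks was 0.17 (control) and 0.14 (non-cachectic mice) and, for the former, went to 0.01 under median-ratio scaling. After rescaling without mitochondrially encoded genes it was 0.03 and 0.01, and the genes called higher went from 763 to 382 and from 581 to 341. Flt1 then differed by 0.44 and 0.48 and Kdr by -0.58 and -0.60, still not called, and Aplnr by -1.89 and -2.20 and Apln by -1.68 and -1.79, called in limma as before. The part of the mitochondrial share in these levels was not tested beyond this rescaling. Relative to that median Flt1 differed by 0.42 and Kdr by -0.57 against control, and by 0.49 and -0.57 against non-cachectic mice. No scaling turned either direction at 6 weeks, and under median-ratio scaling Kdr passed in limma with adjusted p-values of 0.00850 and 0.00937, where its adjusted p over the alternatives run at 6 weeks, each mouse left out included, lay between 0.00850 and 0.554 against control and between 0.00937 and 0.588 against non-cachectic mice. For Flt1 these ranges were 8.26e-05 to 0.573 and 3.89e-05 to 0.603. Cachectic replicate 5, the lowest of the cachectic mice in Kdr, was among the 4 libraries high in liver genes. Without those libraries Kdr differed by -0.33 from control (limma, adjusted p = 0.554) and by -0.36 from non-cachectic mice (limma, adjusted p = 0.556).

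Within a mouse, Flt1 over Kdr, also looked at after the values were seen, was 1.27, 1.23, 1.31, 1.74 and 1.60 in cachectic mice at 6 weeks. It was 0.614 to 0.791 in control and 0.542 to 0.821 in non-cachectic mice, so Flt1 stood above Kdr in every cachectic mouse and below it in every other mouse of that week. At 4 weeks the cachectic mice split, with 1.58, 1.35 and 1.71 in replicates 2, 3 and 4 and 0.767 and 0.644 in replicates 1 and 5, against 0.515 to 1.27 in control and 0.479 to 0.910 in non-cachectic mice. Replicates 1 and 5 were also the cachectic mice with the most Apln and Aplnr at 4 weeks. At 8 weeks the ratio ranged from 0.408 to 1.73 with replicate 3 the lowest, and the control mice lay between 0.466 and 0.798.

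**Figure D2:**
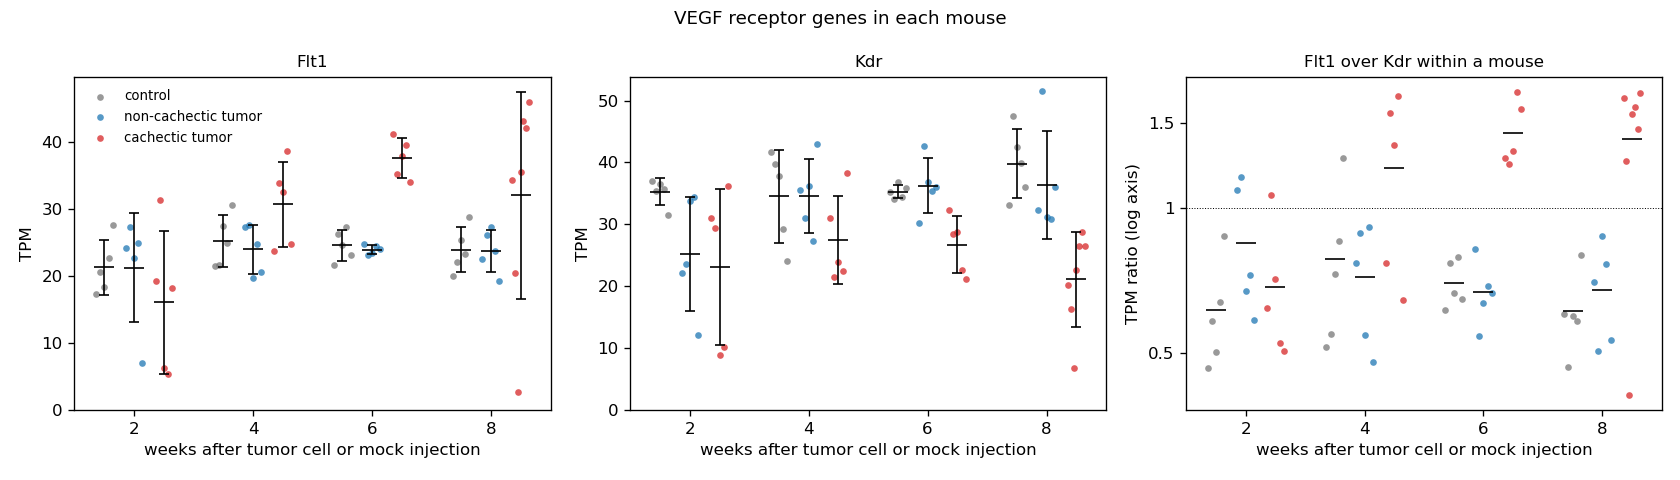
TPM of Flt1 (left) and Kdr (middle) and their ratio within a mouse on a log axis (right), by week and group; points are mice, horizontal bars are means and error bars (TPM panels only) are SDs over 5 mice (7 for cachectic mice at 8 weeks). At 6 weeks the ratio lies between 1.23 and 1.74 in cachectic mice and at or below 0.821 in all others.

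Vegfa, the ligand of both receptors, did not separate the groups. At 6 weeks it stood at 97.5 to 152 TPM in cachectic mice, 130 to 147 TPM in control mice and 114 to 151 TPM in non-cachectic mice. The groups overlapped, since cachectic replicate 3 was above every control mouse and the other 4 were below every control mouse. The difference was -0.22 from control (SE 0.39, limma, adjusted p = 0.798) and -0.17 from non-cachectic mice (SE 0.39, limma, adjusted p = 0.857). For Vegfa the exact two-sided permutation p was 0.0794 with control and 0.19 with non-cachectic mice.

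Among the angiopoietin receptors, neither of which was called in limma at 6 weeks, Tek lay above control mice in all cachectic mice but 1, and Tie1 spanned the control range. Tek stood at 23.7, 26.5, 34.0, 24.7 and 20.04 TPM in cachectic mice, at 21.6, 17.4, 14.4, 19.6 and 16.3 TPM in control mice and at 19.0, 19.7, 22.0, 15.6 and 15.4 TPM in non-cachectic mice. All cachectic mice but replicate 5, which was high in liver genes, lay above both other groups. The exact two-sided permutation p was 0.0159 in each comparison, while the fit over all genes gave 0.50 (SE 0.23, limma, adjusted p = 0.191) and 0.46 (SE 0.23, limma, adjusted p = 0.267). Relative to the median over all genes these were 0.33 and 0.33. Tie1 stood at 20.1 to 37.5 TPM in cachectic, 23.7 to 25.4 TPM in control and 21.9 to 30.6 TPM in non-cachectic mice. Its difference from control was 0.14 (SE 0.37, limma, adjusted p = 0.870), and it turned to -0.05 under median-ratio scaling. For Tie1 the exact two-sided permutation p was 0.413 with control and 0.96 with non-cachectic mice.

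Of the junction genes, neither of which was called in limma, Pecam1 lay above control mice in all cachectic mice but 1 at 6 weeks, and Cdh5 overlapped. Pecam1 at 6 weeks stood at 83.6, 72.8, 72.9, 74.4 and 55.3 TPM in cachectic mice, at 64.0, 50.6, 48.4, 51.2 and 52.6 TPM in control mice and at 60.6, 63.5, 58.2, 52.9 and 50.0 TPM in non-cachectic mice. Again all cachectic mice but replicate 5 lay above both other groups. The exact two-sided permutation p was 0.0159 with control and 0.0317 with non-cachectic mice, and the differences were 0.42 (SE 0.19, limma, adjusted p = 0.205) and 0.32 (SE 0.19, limma, adjusted p = 0.409). Relative to the median over all genes they were 0.25 and 0.18. At 4 weeks Pecam1 lay between 56.5 and 71.5 TPM in cachectic mice, above the 47.1 to 55.0 TPM of all non-cachectic mice, while 5.52% of all genes were separated upward in that comparison; the differences of 0.20 from control (limma, adjusted p = 1.000) and 0.25 from non-cachectic mice (limma, adjusted p = 0.999) did not pass. Cdh5 at 6 weeks stood at 45.1 to 71.0 TPM in cachectic, 61.7 to 73.6 TPM in control and 59.8 to 75.3 TPM in non-cachectic mice, and its difference from control was -0.07 (SE 0.35, limma, adjusted p = 0.930), which turned to 0.03 without the libraries high in liver genes. For Cdh5 the exact two-sided permutation p was 0.651 with control and 0.437 with non-cachectic mice. Pecam1 over Cdh5, looked at after the values were seen, was 1.05 to 1.22 in cachectic mice at 6 weeks, against 0.763 to 0.870 in control and 0.815 to 0.885 in non-cachectic mice.

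Esm1, the tip cell product, had a median of 1.91 TPM over the 62 mice (0.803 to 6.61) and did not pass the test at 6 weeks. At 6 weeks it stood at 0.965 to 2.87 TPM in cachectic, 1.38 to 3.50 TPM in control and 1.57 to 2.36 TPM in non-cachectic mice, with groups that overlapped. The difference from control was -0.31 (SE 0.27, limma, adjusted p = 0.577). For Esm1 the exact two-sided permutation p was 0.238 with control and 0.31 with non-cachectic mice. At 4 weeks cachectic replicates 1, 3 and 5 held 3.86, 3.06 and 6.61 TPM and replicates 2 and 4 held 0.803 and 0.969 TPM, a wider spread than the 1.28 to 3.96 TPM of control mice.

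**Figure D3:**
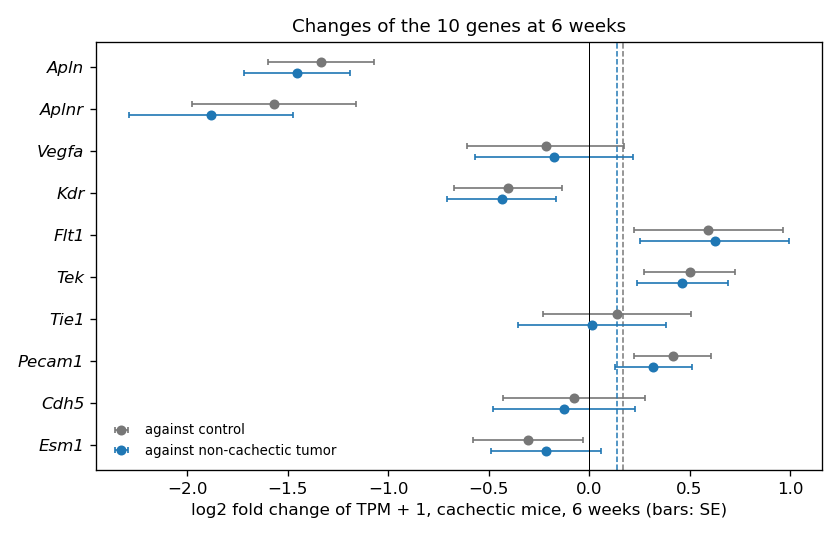
Difference of mean log2(TPM + 1) between cachectic mice and control (gray) or non-cachectic mice (blue) at 6 weeks for the 10 genes; points are limma estimates from 5 mice per group, bars are SEs, and dashed lines are the medians of all 13578 genes (0.17 and 0.14). Aplnr lies at -1.57 and -1.88 and Apln at -1.33 and -1.45, while Flt1 lies at 0.59 and 0.63.

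Of the 10 genes at 6 weeks, 2 were lower and 0 higher by limma in each comparison, and 4 and 3 of the 10 reached an unadjusted p under 0.05, as did 2726 and 2415 of all 13578 genes. Dunn's test called 0 of the 10 and 0 of all 13578 genes in each, so its count tells nothing about the 10. Over all genes limma called 1.17% lower and 5.62% higher against control, and 1.57% lower and 4.28% higher against non-cachectic mice. Groups that did not overlap were found for 3 lower genes (Aplnr, Apln and Kdr) and 1 higher gene (Flt1) against control, where 2.95% and 15.9% of all genes were separated in these directions. Against non-cachectic mice 2 were lower (Aplnr and Apln) and 1 was higher (Flt1), beside 3.3% and 13.6% of all genes. The share of separated genes was thus high upward, and the upward separation of 1 in 10 is near that background. Without the 4 libraries that list the fewest genes, limma called 3 lower (Aplnr, Apln and Kdr) and 3 higher (Flt1, Pecam1 and Tek) in each comparison, while it called 4.29% lower and 26.9% higher of all genes against control and 5.18% lower and 22.1% higher against non-cachectic mice.

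At 4 weeks 0 of the 10 genes passed in limma or in Dunn's test in either comparison, beside 0.00736% of all genes lower against control and 0% lower against non-cachectic mice in limma, and 0 of all genes in Dunn's test. Among the 10, Apln and Aplnr reached an unadjusted p under 0.05 in each, as 728 and 697 of all genes did. Without the 4 libraries that list the fewest genes, Apln was called lower in both, with limma adjusted p-values of 0.00366 and 0.00344, while 0.324% and 0.354% of all genes were called lower.

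At 2 weeks the cachectic minus control comparison rested on 2 cachectic libraries with few genes and 3 control libraries high in liver genes. In it limma called 2 of the 10 lower, Kdr at -0.79 (SE 0.27, limma, adjusted p = 0.0287) and Vegfa at -1.04 (SE 0.39, limma, adjusted p = 0.0419), beside 27.8% of all genes called lower. Over all genes this was 3781 lower and 192 higher, against 1169 and 1217 under median-ratio scaling and 627 and 1549 under quantile normalization. Kdr held 8.84 to 36.1 TPM in cachectic against 31.5 to 37.1 TPM in control mice at that week, and Vegfa 26.3 to 169 TPM against 146 to 186 TPM. Without the 4 libraries that list the fewest genes the differences were -0.13 for Kdr (limma, adjusted p = 0.818) and -0.19 for Vegfa (limma, adjusted p = 0.735), and without the 4 high in liver genes they were -0.86 and -1.10 (limma, adjusted p = 0.508 for both). Against non-cachectic mice limma called 0% of all genes at 2 weeks, with 1709 at an unadjusted p under 0.05. Apln at 2 weeks stood at 10.2, 3.07, 1.83, 1.68 and 7.02 TPM in cachectic mice, where the 2 lowest, replicates 3 and 4, were the libraries with few genes.

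Between non-cachectic and control mice limma called 0 of the 10 genes at each of the 4 times, beside 4.43% of all genes at 2 weeks and 0% at 4, 6 and 8 weeks, where 68, 100 and 55 genes reached an unadjusted p under 0.05; nothing is read from the 8-week counts. Single mice lay far from the controls, among them non-cachectic replicate 5 at 2 weeks, with 7.07 TPM of Flt1, and replicate 3 at 8 weeks, with 1.73 TPM of Aplnr. The 2-week comparison includes the control libraries high in liver genes and non-cachectic replicate 5, which listed few genes. At 6 weeks the difference was 0.31 for Aplnr (SE 0.41, limma, adjusted p = 1.000) and 0.12 for Apln (SE 0.26, limma, adjusted p = 1.000), and at 8 weeks, as a description since the control mice are among those that chose Aplnr, it was -0.54 and -0.43.

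At 8 weeks, in the comparison that chose Aplnr, 3 of the 10 genes (Aplnr, Apln and Kdr) were called lower and 0 higher, beside 8.12% and 6.65% of all genes, and the same 3 were separated downward, beside 3.82%; nothing is read from these counts. Kdr held 6.75 to 28.8 TPM with a median of 22.7 TPM in cachectic and 33.2 to 47.5 TPM in control mice. Flt1 held 2.76 to 45.8 TPM with a median of 35.5 TPM in cachectic and 19.9 to 28.7 TPM in control mice, and its lowest value was that of replicate 3. Without that replicate the difference from control went from 0.10 to 0.57 for Flt1, from -0.98 to -0.75 for Kdr, from -0.82 to -0.39 for Vegfa and from -0.66 to -0.23 for Cdh5. Against non-cachectic mice, which shares the same cachectic mice, 3 were called lower beside 6.19% of all genes, and 2 (Apln and Kdr) were separated downward beside 2.42%.

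Other genes of these pathways, without the 10, are given next for 6 weeks against control, where limma called 5.62% of all genes higher and 1.17% lower. In the VEGF family 1 of 7 tested was higher, the placental growth factor Pgf, a ligand of Flt1, at 0.91 (SE 0.27, limma, adjusted p = 0.0253). Pgf stood at 9.49 ± 3.88 TPM in cachectic against 4.35 ± 0.761 TPM in control mice (SD, n = 5 each). Among angiopoietin and apelin genes 0 of 3 tested passed, and Apela, a further ligand of Aplnr, did not pass the filter and held at most 0.0196 TPM in cachectic mice at 6 weeks. Of 21 pan-endothelial genes 2 were higher and 0 lower, with a median of 0.32 beside 0.17 over all genes. These were Plvap, which forms the diaphragms of fenestrae, at 1.28 (SE 0.28, limma, adjusted p = 0.00256), and Ecscr, an endothelial surface protein, at 0.99 (SE 0.14, limma, adjusted p = 4.56e-06). The summed level of the whole list of 26 pan-endothelial genes was 686 ± 101 TPM in cachectic (541 to 821), 556 ± 23.0 in control (531 to 585) and 583 ± 60.1 in non-cachectic mice (508 to 645, SD, n = 5 each), with Cdh5 the most abundant gene and none of the list at 0 in all mice. The part of endothelial cell number in the levels of the 10 genes was not tested.

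By vessel type, 2 of 6 venous genes were higher at 6 weeks, with a list median of 0.64. The chemokine-binding receptor Ackr1 of venules stood at 10.99 ± 2.57 TPM in cachectic, 2.51 ± 0.726 in control and 3.02 ± 0.682 in non-cachectic mice (SD, n = 5 each), a difference of 1.77 from control (SE 0.18, limma, adjusted p = 1.55e-09). The secreted glycoprotein Lrg1 differed by 1.59 (SE 0.42, limma, adjusted p = 0.0117). Of 7 tip cell genes 1 was higher, Pgf again, with a list median of -0.28. None of 11 capillary, 11 arterial, 6 lymphatic and 10 mural genes was called in limma, with list medians of 0.16, 0.28, 0.76 and 0.28. Of 11 genes of the hypoxia list 1 was higher, Hif1a, a hypoxia-inducible transcription factor, at 0.54 (SE 0.17, limma, adjusted p = 0.0485).

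Markers of other cells also gave calls at 6 weeks. Of 8 macrophage genes 3 were higher, among them the scavenger receptor Cd163 at 1.68 (SE 0.30, limma, adjusted p = 0.000114) and the mannose receptor Mrc1 at 1.23 (SE 0.21, limma, adjusted p = 8.75e-05). The summed level of the 8 was 499 ± 131 TPM in cachectic (326 to 686), 480 ± 204 in control (306 to 819) and 392 ± 124 in non-cachectic mice (300 to 592, SD, n = 5 each), with Lyz2 the most abundant. Of 8 fibro-adipogenic progenitor genes 1 was higher, the proteoglycan Dcn at 0.71 (SE 0.18, limma, adjusted p = 0.00708). That list ran from Col1a1 at -0.69 to Dcn, with a median of 0.04. Of 12 muscle fiber genes 2 were higher and 1 lower, with desmin (Des) at 1.19 (SE 0.37, limma, adjusted p = 0.0385) and myoglobin (Mb) at -0.66 (SE 0.15, limma, adjusted p = 0.00292). Against non-cachectic mice no VEGF, tip cell or hypoxia gene outside the 10 was called, with Pgf at 0.61 (SE 0.27, limma, adjusted p = 0.194) and Hif1a at 0.29 (SE 0.17, limma, adjusted p = 0.406), while 3 pan-endothelial, 2 venous and 2 macrophage genes were higher, 2 muscle genes higher and 1 lower, and 1 fibro-adipogenic progenitor gene higher and 1 lower. None of 10 liver, 6 red blood cell, 7 mesothelium and 7 adipocyte genes was called in limma in either comparison. Their list medians were 0.86, -1.26, 0.42 and 0.40 against control and 0.55, -1.36, 0.12 and -0.38 against non-cachectic mice. The part of these cells in the levels of the 10 genes was not tested.

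These list counts depend on the 4 libraries that list the fewest genes, though none of them is a 6-week mouse. Without them 26.9% of all genes were higher and 4.29% lower at 6 weeks against control, and most lists gave more calls with the same differences. Then 2 VEGF genes were higher and 2 lower, 7 pan-endothelial genes higher and 1 lower, 5 venous, 4 arterial and 3 lymphatic genes higher, and 0 of the 3 angiopoietin and apelin genes called. Of the capillary genes 2 were higher and 1 lower, of the tip cell genes 1 and 2, of the mural genes 3 and 1, and of the hypoxia genes 3 and 0. Of the macrophage genes 5 were higher, of the fibro-adipogenic progenitor genes 2, and of the muscle fiber genes 6 higher and 1 lower, while 1 red blood cell gene was lower and no liver, mesothelium or adipocyte gene was called. Against non-cachectic mice, where 22.1% of all genes were higher and 5.18% lower, 2 VEGF genes were then higher and 1 lower. Pan-endothelial genes gave 8 higher and 1 lower, venous 4 and 0, arterial 5 and 0, and lymphatic 0 and 0. Capillary and tip cell genes each gave 1 and 2, mural 2 and 1, hypoxia 2 and 0, and macrophage 4 and 0. Fibro-adipogenic progenitor genes gave 1 and 2 and muscle fiber genes 6 and 1.

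At 8 weeks, given as a description, 1 of 7 VEGF genes was higher (Pgf at 0.72) and 1 lower (the lymphatic growth factor Vegfc at -0.94). Of 7 tip cell genes 1 was higher and 4 lower, with the semaphorin receptor Plxnd1 at -1.46 and the netrin receptor Unc5b at -1.21. Of 11 capillary genes 5 were higher and 2 lower, among them Rgcc at 0.85 and Gpihbp1, which holds lipoprotein lipase at the capillary wall, at 0.84, and the list median was 0.21. The angiopoietin Angpt2 was lower at -0.48, 1 of 3 tested in its list. Of 21 pan-endothelial genes 3 were higher and 1 lower, with Plvap at 0.94 and the transcription factor Sox7 at -1.22. Of 6 venous genes 2 were higher and 0 lower, Lrg1 at 1.45 and Ackr1 at 1.38, and the list median was 0.27. Of 10 mural genes the pericyte proteoglycan Cspg4 was lower at -0.74, and of 11 hypoxia genes 2 were higher, Ddit4 at 2.50 and Bnip3 at 0.66. Of 8 fibro-adipogenic progenitor genes 1 was higher and 3 lower, with the collagens Col1a1 at -2.12 and Col3a1 at -1.89, and of 8 macrophage genes 4 were higher, with Cd163 at 1.49 and C1qb at 0.97. Of 12 muscle fiber genes 0 were higher and 1 lower, Mb at -0.70. All these values are differences of log2(TPM + 1) from control mice, and cachectic replicate 3 enters each of them. Over all genes 6.65% were higher and 8.12% lower, and nothing is read from these counts. Without the 4 libraries that list the fewest genes, that replicate among them, 22.2% of all genes were higher and 12.4% lower. The lists then gave 2 higher and 2 lower for VEGF, 1 and 4 for tip cell, 6 and 2 for capillary, 0 and 1 for angiopoietin and apelin, 8 and 1 for pan-endothelial and 3 and 0 for venous genes. They gave 5 and 0 for arterial, 2 and 1 for mural, 4 and 1 for hypoxia, 1 and 4 for fibro-adipogenic progenitor, 4 and 0 for macrophage and 5 and 1 for muscle fiber genes. The named genes kept their direction, with Pgf at 0.92, Vegfc at -0.90, Plxnd1 at -1.13, Unc5b at -0.97, Rgcc at 0.87, Gpihbp1 at 0.94, Angpt2 at -0.51 and Plvap at 1.28. Sox7 then stood at -0.96, Lrg1 at 2.02, Ackr1 at 1.40, Cspg4 at -0.54, Ddit4 at 2.98, Bnip3 at 0.82, Col1a1 at -1.80, Col3a1 at -1.86, Cd163 at 1.78, C1qb at 0.97 and Mb at -0.89.

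The genes whose means over the 12 conditions were most like those of Aplnr, outside the 10, were Gm16534 (Pearson r = 0.986, Spearman rho = 0.986), the parathyroid hormone-related protein gene Pthlh (0.986 and 0.944) and Col15a1 (0.983 and 0.979), followed by Mfap4 (0.982 and 0.916) and Islr (0.980 and 0.986). Col15a1, a collagen of basement membranes, stood at 10.6 ± 2.19 TPM in cachectic, 25.6 ± 2.72 in control and 38.5 ± 10.3 in non-cachectic mice at 6 weeks (SD, n = 5 each). The genes most like Cdh5 were Pigs (0.992 and 0.965), Cad (0.989 and 0.895), Iqsec1 (0.988 and 0.923), Noa1 (0.988 and 0.930) and Zfp362 (0.986 and 0.958). These are descriptions over 12 condition means that include the 8-week values and share libraries, among them those with few genes. For the same genes without those 4 libraries, r with Aplnr was 0.987, 0.982, 0.988, 0.984 and 0.984 (rho 0.944, 0.923, 0.958, 0.923 and 0.986), in the order above. With Cdh5 r was 0.835, 0.830, 0.764, 0.873 and 0.919 (rho 0.748, 0.643, 0.692, 0.762 and 0.860), so the likeness to Cdh5 rested in part on those libraries.

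In the GENCODE annotation of GRCm38, Aplnr lies on the forward strand of chromosome 2 (85136225 to 85139923), Apln on the reverse strand of chromosome X (48025146 to 48034853), and Kdr (75932827 to 75978458) and Flt1 (147561604 to 147726011) both on the reverse strand of chromosome 5. Vegfa lies on the reverse strand of chromosome 17 (46016993 to 46032369), Tek on the forward strand (94739289 to 94874976) and Tie1 on the reverse strand (118471191 to 118490061) of chromosome 4, Pecam1 on the reverse strand of chromosome 11 (106654217 to 106750628), Cdh5 on the forward strand of chromosome 8 (104101625 to 104144511) and Esm1 on the forward strand of chromosome 13 (113209659 to 113218098). Cdh5 is overlapped by the antisense gene Gm29682 and Esm1 by Gzmk on the other strand. The labels name a stranded library kit and the methods one without strand information, and strand use in the quantification is not given, so reads of Cdh5 and Gm29682 cannot be told apart if strand was lost or not used. Gzmk was above 0 in 16 of 62 mice and at most 0.129 TPM.

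RefSeq promoter entries (build GRCm38.p6) matched 7 of the 10 genes, with 8 entries; Aplnr, Cdh5 and Pecam1 had none. The 250 bases before the start that RefSeq gives were searched on both strands for CAGGAAG and CCGGAAG, letters bound by ETS factors that act in endothelial cells, for ACGTG and GCGTG, the core of hypoxia response elements, and for the glucocorticoid response element. Over all 32851 windows, 10.8% held CAGGAAG, 6.91% CCGGAAG, 16.6% ACGTG, 28.2% GCGTG and 0.387% the glucocorticoid element. The windows of Apln, which fell, and of the receptor genes Kdr and Flt1 are shown, all on the reverse strand and written 5′ to 3′ along the gene, with matches in capitals. In Apln the match is CAGGAAG on the other strand, in Kdr it is GCGTG at 2 places, and in Flt1 it is GCGTG on the other strand.
Apln, chrX:48034854-48035103: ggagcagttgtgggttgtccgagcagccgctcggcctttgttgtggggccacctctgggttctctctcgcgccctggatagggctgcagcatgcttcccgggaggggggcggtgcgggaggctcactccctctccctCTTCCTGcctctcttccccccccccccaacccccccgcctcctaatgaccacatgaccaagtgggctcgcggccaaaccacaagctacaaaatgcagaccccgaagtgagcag
Kdr, chr5:75978456-75978705: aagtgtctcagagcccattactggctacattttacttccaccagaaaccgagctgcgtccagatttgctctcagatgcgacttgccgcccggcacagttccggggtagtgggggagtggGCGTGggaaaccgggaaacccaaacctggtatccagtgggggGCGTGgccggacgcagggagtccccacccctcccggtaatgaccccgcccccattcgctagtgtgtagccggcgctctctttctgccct
Flt1, chr5:147726012-147726261: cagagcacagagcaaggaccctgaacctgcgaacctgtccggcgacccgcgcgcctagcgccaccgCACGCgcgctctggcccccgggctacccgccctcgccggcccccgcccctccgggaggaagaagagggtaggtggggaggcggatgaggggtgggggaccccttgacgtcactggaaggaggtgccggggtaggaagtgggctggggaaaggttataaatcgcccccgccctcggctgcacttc
Of the other entries, Esm1 held GCGTG once, and Tek, Tie1 and the Vegfa entry at the start of the gene held none of these letters. The other Vegfa entry, whose window lies inside the annotated gene, held ACGTG and GCGTG, and most of the Tie1 window also lies inside its gene. A match describes the letters in this window and no more.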

How the data were processed

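Libraries were made with a TruSeq kit, stranded by the labels but not by the methods, and sequenced as paired ends on a NovaSeq instrument. After trimming and filtering, CLC Genomics Workbench aligned the reads to GRCm38, and the authors deposited TPM per gene. Annotation release, strand use and treatment of multi-mapped reads are not given in the sources used here. From these, log2(TPM + 1) was computed, and limma 3.58.1 (R 4.3.3) was fitted to 62 mice with 12 condition means, for the 13578 of 47643 genes that reached 1 TPM in 5 or more mice, with a trended prior spread and Benjamini-Hochberg adjustment within each comparison over all genes tested. A gene was called at an adjusted p under 0.05. limma was chosen in place of the authors' rank tests, which are an alternative here. The fit was tested on simulated data.

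Each of the 10 genes at 6 weeks was also tested in both comparisons by an exact two-sided permutation test, with no adjustment over the 10 genes since these were picked. The members and lists were chosen with earlier results of these data known. Besides the 10 genes, the text names in each list up to 2 called genes with the largest difference at 6 and at 8 weeks, the 5 genes most like Aplnr and Cdh5, and Apela, named after its values were seen. Ratios between genes were added after the data were seen. Alternatives were another pseudocount, no filter, median-ratio scaling, quantile normalization, rescaling without mitochondrially encoded genes, array weights, the replicate number as a block, fits with only the groups compared, Dunn's test and leaving out libraries. Figures were drawn in Python.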

Additional observations from a re-analysis of the deposited data

Results flagged for a closer look

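Of 120 sets of a gene and a condition, 17 held a mouse far from the others of its condition, with a gap to its nearest neighbor that was large for the range. Chance flags about 1 in 20 groups, and the genes of 1 library are not independent: 12 of the 17 came from libraries that list few genes. Cachectic replicate 3 at 8 weeks was low in Kdr (6.75 TPM), Flt1 (2.76 TPM), Pecam1 (23.8 TPM), Cdh5 (6.75 TPM), Tek (6.90 TPM), Tie1 (1.81 TPM) and Vegfa (13.4 TPM). Non-cachectic replicate 5 at 2 weeks was low in Flt1 (7.07 TPM), Cdh5 (19.4 TPM), Tek (7.50 TPM), Tie1 (7.93 TPM) and Vegfa (31.4 TPM). Apln and Aplnr were not far from the other mice in either library.

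In the other libraries, Aplnr was low in non-cachectic replicate 3 at 8 weeks (1.73 TPM). Cdh5 was high in non-cachectic replicate 2 at 8 weeks (92.1 TPM) and in control replicate 1 at 6 weeks (73.6 TPM). At 8 weeks Tie1 was low in control replicate 1 (21.8 TPM) and Vegfa in control replicate 5 (108.6 TPM).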

How the results depend on the processing

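The 6-week falls of Apln and Aplnr kept their direction under every alternative run, and were called in both comparisons by all but Dunn's test (0 of the 10 and of all genes lower in each) and 1 fit without a mouse, below. Counts among the 10 genes moved as follows, against 0 lower at 4 weeks, 2 lower and 0 higher at 6 weeks, and 3 lower and 0 higher at 8 weeks. At 4 weeks 1 gene was lower in both comparisons under median-ratio scaling, quantile normalization, rescaling without mitochondrially encoded genes, array weights and without the 4 libraries that list the fewest genes. Over all genes 4 and 5, 5 and 3, 2 and 5, 168 and 130, and 44 and 48 were lower in that order. At 6 weeks Kdr was also lower in both comparisons under median-ratio scaling, quantile normalization and array weights. It was so too with only the groups compared and without those 4 libraries. Over all genes 545 and 572, 729 and 743, 858 and 1130, 631 and 699, and 582 and 704 were lower in that order. Of the 10 genes 3 were higher at 6 weeks in both comparisons with array weights and without those 4 libraries, and 3 against control and 2 against non-cachectic mice with only the groups compared. Over all 13578 genes 5707 and 4389 were higher with array weights, 3651 and 2996 without the 4 libraries and 3399 and 2603 with only the groups compared, so these counts are near or below the share over all genes. At 8 weeks 5 were lower and 1 higher against control and 1 higher against non-cachectic mice under median-ratio scaling, 5 lower in both under quantile normalization, 5 lower against control after rescaling, and 2 higher in both with array weights and without the 4 libraries. Over all genes these settings gave 1651 lower and 1620 higher (control) and 1418 higher (non-cachectic mice) under median-ratio scaling, 1952 and 1663 lower under quantile normalization and 2869 lower after rescaling. They gave 3287 and 4387 higher with array weights and 3015 and 3144 without the 4 libraries. Against non-cachectic mice at 8 weeks Vegfa was also lower under median-ratio scaling and after rescaling, beside 1509 and 2375 of all genes. With only the groups compared Kdr was called in neither comparison at 8 weeks, where 300 and 178 of all genes were lower. Dunn's test did not call Kdr against non-cachectic mice either, where it called 301 of all genes lower. The cause was not tested.

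Leaving out each mouse in turn gave 0 to 1 lower at 4 weeks in both comparisons. It gave 1 to 2 lower against control and 2 to 2 against non-cachectic mice at 6 weeks, and 3 to 3 and 2 to 3 at 8 weeks, with 0 to 0 higher except 0 to 1 against non-cachectic mice at 8 weeks. The calls turned on cachectic replicate 1 (against control) or 5 (against non-cachectic mice) at 4 weeks for Apln, replicate 1 at 6 weeks for Aplnr, and, at 8 weeks against non-cachectic mice, cachectic replicate 3 (Kdr and Pecam1) and non-cachectic replicate 2 (Kdr). At 6 weeks Aplnr ranged from -1.76 to -1.44 and from -2.08 to -1.72, and Apln from -1.46 to -1.24 and from -1.58 to -1.36.

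Replicate numbers did not pair the samples: 18 of 60 same-number pairs correlated above 0.1, with a range of -0.633 to 0.387. With the replicate block 2 genes were lower at 6 weeks in both comparisons, 0 at 4 weeks and 3 at 8 weeks.

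Over all genes limma called 922 at 6 weeks against control, and 6565 with array weights, 4233 without the 4 libraries, 4030 with only the groups compared and 0 by Dunn's test. Against non-cachectic mice it called 794, and 5519, 3700, 3302 and 0 in the same order. The split against control was 763 higher and 159 lower, and 467 and 545 under median-ratio scaling, 530 and 729 under quantile normalization and 382 and 455 after rescaling. Against non-cachectic mice it was 581 higher and 213 lower, and 468 and 572, 512 and 743, and 341 and 562 in the same order. The TPM values carry no depth, so no counting error can be given for Apln and Aplnr near 1 TPM.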
